A study of Arabidopsis thaliana with 9 samples.

Results

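Expansins are small secreted proteins that loosen plant cell walls, and the Arabidopsis thaliana superfamily was followed here through the induction of the transcription factor PERIANTHIA (PAN) in roots. The family was taken as 36 loci, EXPA1 to EXPA26, EXPB1 to EXPB6, EXLA1 to EXLA3 and EXLB1, chosen by gene identifier. Each had a row of its own among the 33201 rows of the deposited table. The plants were a Col-0 line carrying XVE:PAN, a transgene in which β-estradiol switches PAN on. Seedlings were moved to medium with 10 uM β-estradiol and kept there for 0 h, 6 h or 24 h, with 5 days of growth in all, and each time had 3 biological replicates. All 3 groups carried the transgene on sucrose medium, and no mock-treated or transgene-free samples were analysed here. The effects of PAN, of estradiol and of the transfer therefore cannot be told apart.

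Alpha-expansins (EXPA) and beta-expansins (EXPB) disrupt the bonds between cellulose and the polysaccharides around it, without cutting them, and they work best in an acidic wall. Cells lower their wall pH with plasma membrane proton pumps, so expansins and pumps are regarded as partners in acid growth. The expansin-like proteins (EXLA and EXLB) share the fold, but wall loosening by them is not established. In roots, EXPA7 and EXPA18 are known as genes of root hair cells, whose tip growth needs a locally softened wall, and EXPA14 and EXPA17 are known from lateral root formation.

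The stretch of DNA just upstream of a gene can show what sets one expansin apart from another, so the 250 bases before the annotated start were searched for 3 motifs on both strands. Sequences and gene models were those of RefSeq on TAIR10.1, and 35 of the 36 loci have a protein-coding model there. EXPA19 is a transcribed pseudogene. The root hair element, a degenerate consensus known from root hair promoters and searched in both of its spacings, was found upstream of EXPA7 and EXPA18 and upstream of no other expansin. It occurred in 0.754% of the 27438 protein-coding gene windows of the same length. Since the consensus comes from root hair promoters, its match in this pair of known root hair genes is not an independent finding. The windows of the pair are shown 5′ to 3′ with motif matches in capitals. In EXPA7 at chr1:4276255-4276504 (plus strand) the element lies 78 to 62 bases before the start, and an inverted TGACG lies 238 to 234 bases before it. In EXPA18 at chr1:23331313-23331562 (plus strand) the element lies 40 to 25 bases before the start.
EXPA7: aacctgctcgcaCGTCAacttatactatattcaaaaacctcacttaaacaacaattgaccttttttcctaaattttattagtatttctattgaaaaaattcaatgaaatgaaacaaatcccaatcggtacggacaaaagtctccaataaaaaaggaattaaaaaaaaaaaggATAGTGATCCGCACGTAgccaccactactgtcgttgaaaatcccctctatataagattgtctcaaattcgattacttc
EXPA18: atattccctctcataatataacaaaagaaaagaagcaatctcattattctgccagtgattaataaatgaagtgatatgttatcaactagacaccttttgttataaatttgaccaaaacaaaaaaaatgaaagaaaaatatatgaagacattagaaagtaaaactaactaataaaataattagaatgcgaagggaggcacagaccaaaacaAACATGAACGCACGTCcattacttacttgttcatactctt
The EXPA18 window overlaps a short gene on the other strand, AT1G62978, which was listed at 0 at each time. The coding sequences of EXPA7 and EXPA18 match at 74.5% of 762 aligned bases.

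TGACG is the core that TGA-type bZIP factors, the class to which PAN belongs, are known to bind. It was found upstream of 6 of the 35 expansins with a window (17.1%), against 18.6% of all windows. The 6 were EXPA7, EXPA24, EXLA1, EXLA2, EXLA3 and EXLB1, so each of the 4 expansin-like genes held the motif. Their windows are shown because every gene of that subfamily held a copy, a set picked once the matches were known, with TGACG or its complement CGTCA in capitals. EXLA2 holds 2 copies side by side, 107 to 98 bases before the start, and EXLA1 holds 1 copy 95 to 91 bases before it. EXLB1 has a copy 83 to 79 bases before the start, and EXLA3 has one at the far edge of its window, 250 to 246 bases before it. The windows were chr3:16895916-16896165 (plus strand), chr4:17979741-17979990 (minus strand), chr3:16892452-16892701 (plus strand) and chr4:9583291-9583540 (minus strand).
EXLA1: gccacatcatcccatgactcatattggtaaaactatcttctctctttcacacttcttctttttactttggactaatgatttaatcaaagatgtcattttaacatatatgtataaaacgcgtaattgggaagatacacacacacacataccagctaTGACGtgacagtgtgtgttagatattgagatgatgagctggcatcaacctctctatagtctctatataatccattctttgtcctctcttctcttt
EXLA2: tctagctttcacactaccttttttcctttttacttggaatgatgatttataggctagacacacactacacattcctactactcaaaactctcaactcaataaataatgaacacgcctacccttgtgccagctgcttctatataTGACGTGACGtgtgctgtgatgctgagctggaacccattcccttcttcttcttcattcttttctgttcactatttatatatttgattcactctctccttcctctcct
EXLA3: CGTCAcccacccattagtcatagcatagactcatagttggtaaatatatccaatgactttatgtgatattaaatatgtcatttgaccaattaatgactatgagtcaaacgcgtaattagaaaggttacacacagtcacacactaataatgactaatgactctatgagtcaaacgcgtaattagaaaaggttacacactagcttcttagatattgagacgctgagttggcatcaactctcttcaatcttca
EXLB1: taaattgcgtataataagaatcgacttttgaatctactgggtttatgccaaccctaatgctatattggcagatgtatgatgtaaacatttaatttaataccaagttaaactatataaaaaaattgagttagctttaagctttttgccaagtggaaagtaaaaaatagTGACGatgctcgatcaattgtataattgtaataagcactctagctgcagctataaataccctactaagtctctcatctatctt
The EXLA2 window overlaps AT4G38401, a short gene on its own strand. A match is a run of letters and does not show binding. CACGTG, searched as a further motif, was found upstream of EXPB2 alone, against 6.49% of all windows.

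Levels were read as FPKM (read counts scaled for transcript length and for library size), 1 value per gene and time that the authors made from the 3 replicates. No spread between replicates can therefore be given, and the read depth is unknown. The authors' deposited q-values are thus the one measure of replicate error. A gene was called when its q-value was below 0.05 and its mean over the 3 times was at least 1 FPKM, which 17841 rows reached. Differences are given on the log2(FPKM + 1) scale, which understates changes of low genes. PAN (AT1G68640) itself had 1.03 FPKM at 0 h, 688 FPKM at 6 h and 385 FPKM at 24 h. The labels describe the tissue as whole root in one field, and as root cut about 0.5 cm from the tip in another.

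Of the 36 expansins, 23 had a mean of at least 1 FPKM, 3 were below that and 10 were listed at 0 at each time. The 10 were EXPB2, EXPB4, EXPB5, EXPB6, the pseudogene EXPA19, and EXPA22 to EXPA26. EXPA22 to EXPA26 lie in a row on chromosome 5 beside EXPA21 (AT5G39260), which had 0.0512, 0.129 and 0.209 FPKM at 0, 6 and 24 h. Reads of near-identical copies can be split or lost in counting, and 97.7% of the aligned coding bases of EXPA22 and EXPA26 are the same. Over 100-base stretches, the length of a read, 20.4% of the EXPA22 transcript and 20.7% of the EXPA26 transcript recur in the other. EXPA23 and EXPA25 match at 97.5% of their aligned coding bases, and 30.4% and 30.0% of their stretches recur in the other. No stretch of EXPA24 recurs in another transcript. EXPA2 (AT5G05290), known from germinating seeds, was listed at 0 at 0 h and had 0.0413 FPKM at 6 h and 0.0393 FPKM at 24 h. EXPA5 (AT3G29030) had 0.380, 0.260 and 0.243 FPKM. Of the 23 genes above the limit, EXPA16 is the one with a value below 1 FPKM at any time, so it passed through its later times.

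Summed over the family, the level was 1882 FPKM at 0 h, 1699 FPKM at 6 h and 1349.7 FPKM at 24 h. This was 0.202%, 0.197% and 0.136% of the sum over all rows. The alpha-expansins EXPA7, EXPA9, EXPA17 and EXPA18 made up 72.5%, 76.3% and 72.6% of the expansin sum at the 3 times. The 6 beta-expansins summed to 182, 101 and 68.9 FPKM, nearly all of it EXPB1. The 4 expansin-like genes summed to 121, 82.7 and 67.8 FPKM.

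**Figure D1:**
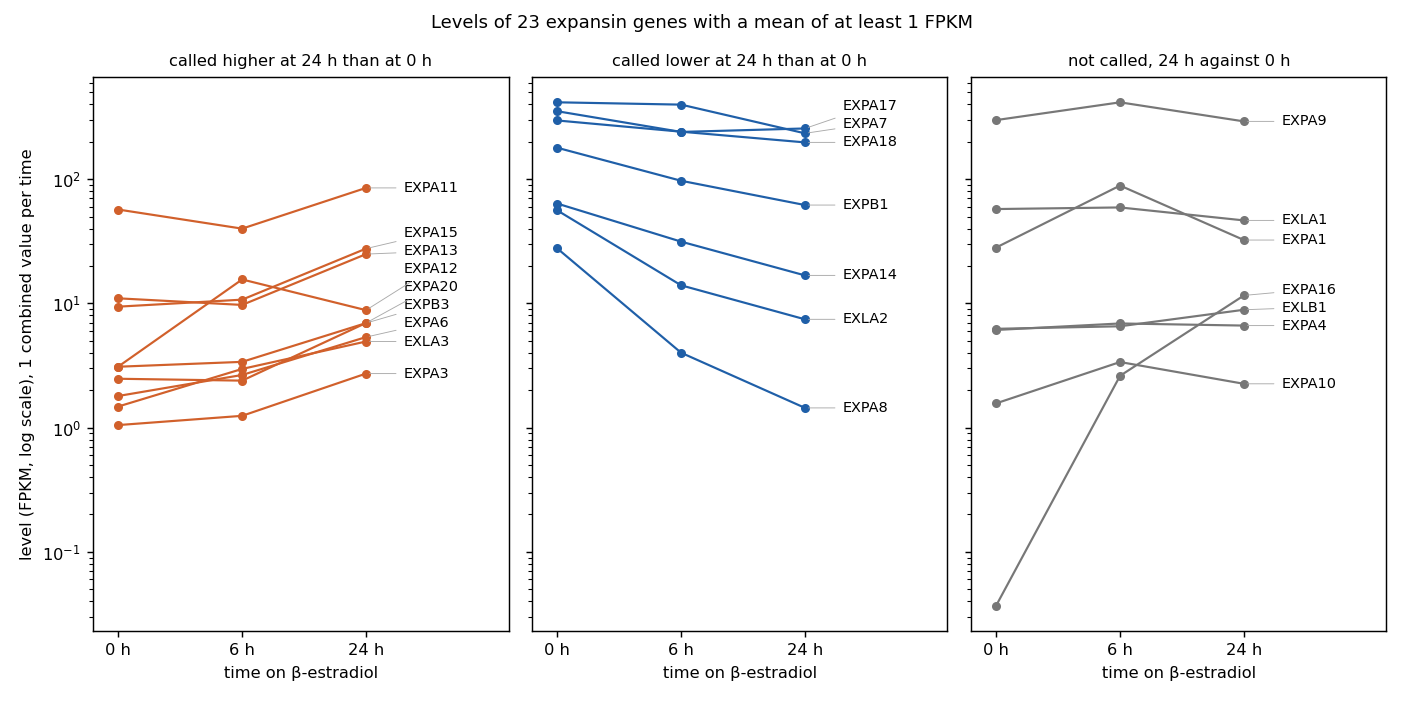
FPKM on a log axis at 0, 6 and 24 h for the 23 expansins with a mean of at least 1 FPKM; each line is 1 gene, each point 1 value combined by the authors from 3 replicates. Panels hold the 9 genes called higher at 24 h than at 0 h, the 7 called lower and the 7 not called; the falling genes start at 27.7 FPKM or more, and EXPA8 ends at 1.44 FPKM.

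By 24 h, 16 of the 23 expansins had changed against 0 h, 9 of them higher and 7 lower. With a minimum mean of 5 FPKM, 4 were called higher and 7 lower. The 16 are 69.6% of the genes tested, against 47.7% of all 17841 genes. The higher calls made up 39.1% and the lower ones 30.4%, each against 23.8% of all genes. Genes of the family thus changed in both directions, and most that rose had lower values at 0 h than those that fell. With the genes split at 20 FPKM at 0 h, a limit chosen after the values were seen, 11 expansins lay at or above it. Of these, 7 fell and EXPA11 rose. Of the 12 below the limit, 8 rose and none fell, by the deposited q-values or by the unadjusted p-values recovered from them. Among all genes, 21.02% of those at or above the limit were called higher and 35.9% lower, and below it 25.6% higher and 16.3% lower. The 0 h value enters both the split and the change, so these shares are descriptions.

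The root hair expansins stood near the top of the table and were called lower at 24 h against 0 h. EXPA7 (AT1G12560) had 416, 398 and 234 FPKM at 0, 6 and 24 h, a difference of -0.83 at 24 h against 0 h (q = 0.000358 in the authors' deposited table). Its level was thus close to the start at 6 h, with a difference of -0.062 (q = 0.858 in the authors' deposited table). EXPA18 (AT1G62980) had 297, 241 and 198 FPKM, a difference of -0.58 at 24 h against 0 h (q = 0.0147 in the authors' deposited table). At 6 h EXPA18 differed from 0 h by -0.30 and at 24 h from 6 h by -0.29, neither of them called (q = 0.228 and q = 0.267 in the authors' deposited table). EXPA7 alone of the pair was called for 24 h against 6 h. Whether the pair differ from each other in their change was not tested. Fewer root hair cells and less RNA per cell cannot be told apart in whole tissue.

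Other genes of root hair cells were lower at 24 h as well. Of 7 marker genes, 6 were called lower at 24 h than at 0 h, and RHS19 was not. Their summed level was 2599.7, 1934 and 1497 FPKM at 0, 6 and 24 h, and none of them was near 0. Among 9 measured regulators of hair growth, 6 were called lower at 24 h and none higher. Among all genes, 23.8% were called lower and 23.8% higher. RSL4, a bHLH factor that promotes hair growth and is known to act on hair expansin genes, had 90.1, 76.9 and 29.5 FPKM. RHD6, which acts above it, had 39.0, 25.1 and 17.8 FPKM and was called lower at 6 h already, as was RSL1. These were 2 of the 9 regulators, and 7 were not called at 6 h. Lower calls at 6 h were 7.35% of all genes. RSL2 had 64.1, 83.9 and 25.7 FPKM, RSL3 had 4.05, 6.21 and 1.86 FPKM, and LRL3 had 139.5, 118.8 and 73.1 FPKM. RSL2, RSL3 and LRL3 were called lower at 24 h against 0 h. The higher 6 h values of RSL2 and RSL3 were not called against 0 h. GL2, which represses hair fate in non-hair cells, had 16.6, 13.3 and 12.1 FPKM and was not called. The part of cell number or of these regulators in the fall of EXPA7 and EXPA18 was not tested.

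EXPA14 and EXPA17, known from lateral root formation, were called lower at 6 h and at 24 h than at 0 h. EXPA1, known from lateral root founder cells and described below, took another course. It was called higher at 6 h and was not called at 24 h against 0 h. EXPA14 (AT5G56320) had 63.7, 31.4 and 16.8 FPKM at 0, 6 and 24 h, with differences of -0.996 at 6 h and -1.86 at 24 h against 0 h. For these and for the step between 6 h and 24 h the authors' deposited table lists q = 0.000358. EXPA17 (AT4G01630) had 353, 240.1 and 256 FPKM, and the authors' deposited table lists q = 0.00813 at 6 h and q = 0.0397 at 24 h against 0 h. No further change was called after 6 h, with a difference of 24 h over 6 h of 0.093 (q = 0.757 in the authors' deposited table).

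EXPA8 and EXLA2 had the steepest falls of the family. EXPA8 (AT2G40610), an alpha-expansin, had 27.7, 4.01 and 1.44 FPKM at 0, 6 and 24 h. Against 0 h it differed by -2.52 after 6 h and by -3.56 after 24 h. It ranked 2nd of the 1311 genes called lower at 6 h and 5th of the 4253 called lower at 24 h. EXLA2 (AT4G38400), an expansin-like gene linked to the response to fungal infection, had 56.1, 14.0 and 7.44 FPKM, with differences of -1.93 and -2.76. It ranked 7th at 6 h and 15th at 24 h among the genes called lower. Its relatives had other courses in these values, a difference that was not tested. EXLA1 (AT3G45970) had 57.5, 59.2 and 46.6 FPKM and was called in no comparison, and EXLA3 (AT3G45960) had 1.48, 2.97 and 4.94 FPKM and was higher at 6 h and at 24 h than at 0 h. EXLB1 (AT4G17030), with 6.24, 6.54 and 8.89 FPKM, was not called. All 4 genes carry TGACG in the windows printed above. EXLA1 also overlaps the end of HTB9, a histone H2B gene on the other strand, which had 200.2, 197 and 414 FPKM.

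EXPB1 (AT2G20750), the one abundant beta-expansin, had 179, 97.1 and 61.9 FPKM at 0, 6 and 24 h. Its differences against 0 h were -0.88 and -1.52, each listed at q = 0.000358 in the authors' deposited table. EXPB3 (AT4G28250), the other beta-expansin measured, had 3.09, 3.38 and 6.94 FPKM and was higher at 24 h, by 0.96. EXPA8, EXPA14, EXPB1 and EXLA2 were the 4 expansins called lower in each of the 3 comparisons, which share libraries. The share of all genes called lower in each of the 3 is not given here, so the count is a description.

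**Figure D2:**
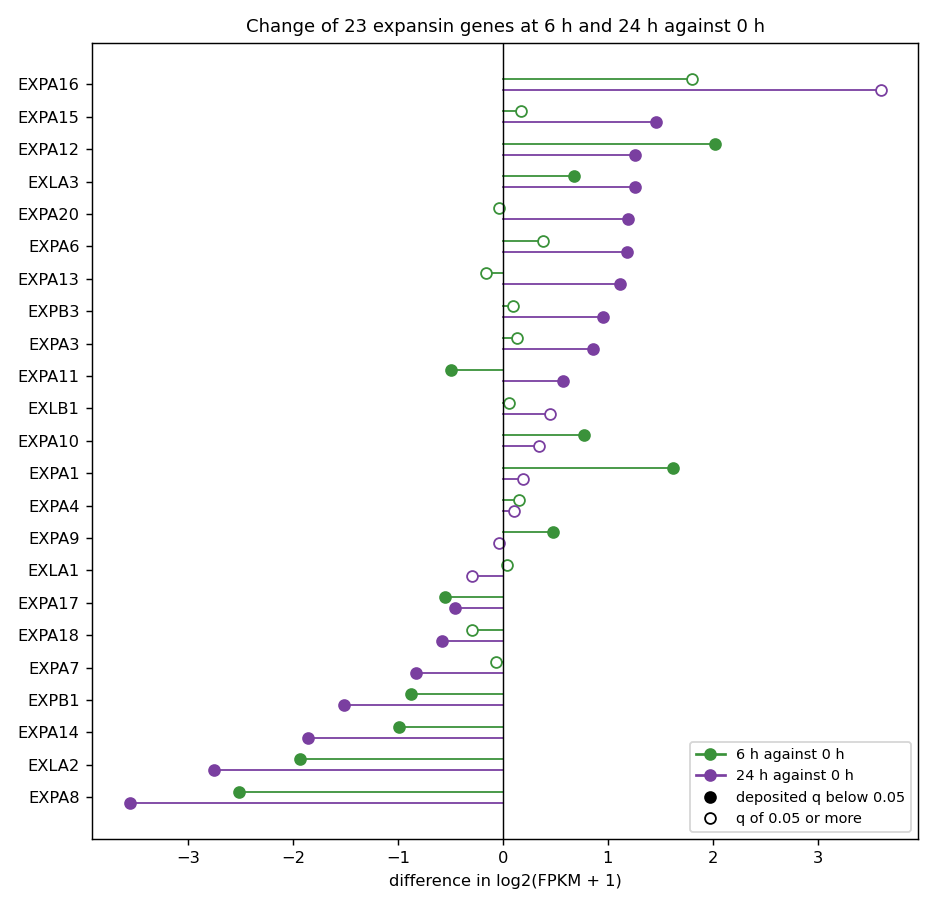
Difference in log2(FPKM + 1) at 6 h (green, upper) and 24 h (purple, lower) against 0 h for the 23 expansins, ordered by the 24 h difference; filled points have a deposited q-value below 0.05. EXPA8 lies at -2.52 and -3.56, while EXPA1 lies at 1.62 at 6 h and 0.19 at 24 h.

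Most genes called higher at 24 h were not called higher at 6 h, and most were of low or middle level. Of the 9, 7 were alpha-expansins, a class that holds 17 of the 23 genes tested and 5 of the 7 that fell. EXPA15 (AT2G03090) had 9.41, 10.7 and 27.6 FPKM at 0, 6 and 24 h, a difference of 1.46 at 24 h against 0 h. EXPA13 (AT3G03220) had 10.99, 9.72 and 24.9 FPKM. For both genes the authors' deposited table lists q = 0.000358 for 24 h over either earlier time. EXPA3, EXPA6, EXPA20 and EXPB3 likewise were called higher at 24 h against both earlier times and not at 6 h. EXPA6 (AT2G28950) had 1.80, 2.65 and 5.36 FPKM, and EXPA3 (AT2G37640) had 1.05, 1.24 and 2.72 FPKM. EXPA20 (AT4G38210) had 2.47, 2.39 and 6.96 FPKM. A long noncoding RNA, AT4G38215, lies over EXPA20 on the other strand, and 75.6% of the 100-base stretches of the EXPA20 transcript lie in it. AT4G38215 had 1.68, 1.44 and 4.35 FPKM. The libraries were strand-specific per the labels, but the use of strand in counting is not stated. Reads of the overlapping pair may therefore not be separated.

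EXPA11 (AT1G20190) took its own course among the abundant genes, with 57.0, 40.0 and 85.1 FPKM at 0, 6 and 24 h. It was called lower at 6 h, higher at 24 h than at 0 h, and higher at 24 h than at 6 h. EXPA16 (AT3G55500) had 0.0369, 2.61 and 11.6 FPKM, a difference of 3.60 at 24 h against 0 h, close in size to that of EXPA8. Which of the pair is the larger depends on the setting, and with the length trend subtracted EXPA16 had 3.33 and EXPA8 -3.83. It was not called against 0 h, with q = 0.329 for both later times in the authors' deposited table. It was called for 24 h against 6 h (q = 0.000358 in the authors' deposited table). Of the genes tested, 0.291% had a lower 0 h value than EXPA16, and why the deposited test gave no call there was not tested.

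At 6 h, 11 of the 23 expansins had changed against 0 h, 5 higher and 6 lower, or 47.8% of the genes tested, against 11.3% of all genes. The higher calls were 21.7% of the expansins, against 3.98% of all genes, and the lower calls 26.1%, against 7.35%. Beside the 6 that fell, namely EXPA8, EXPA11, EXPA14, EXPA17, EXPB1 and EXLA2, the genes that rose were EXPA1, EXPA9, EXPA10, EXPA12 and EXLA3. With an adjustment of recovered p-values over the 6 h comparison only, 7 of the 23 were still called, against 7.61% of all genes by the same rule. EXPA9, EXPA10, EXPA11 and EXLA3 were then lost, with adjusted p-values of 0.118, 0.0840, 0.0770 and 0.118.

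EXPA1 and EXPA12 were called higher at 6 h under either adjustment. EXPA1 (AT1G69530), known from stomata and from lateral root founder cells, had 28.2, 88.9 and 32.4 FPKM at 0, 6 and 24 h. It was higher at 6 h by 1.62, and the difference of 24 h over 6 h was -1.43, both listed at q = 0.000358 in the authors' deposited table. At 24 h against 0 h its difference was 0.19 (q = 0.465 in the authors' deposited table). EXPA12 (AT3G15370) had 3.10, 15.6 and 8.82 FPKM and was higher at 6 h by 2.02, the 24th largest of 710 rises. It was lower at 24 h than at 6 h but was still called higher than at 0 h, by 1.26.

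EXPA9 (AT5G02260), which had the highest expansin value at 6 h, followed the course of EXPA1 with smaller steps. It had 299, 416 and 292 FPKM, and the authors' deposited table lists q = 0.0398 for its rise by 6 h and q = 0.0261 for its fall after 6 h. EXPA10 (AT1G26770), known from leaf growth, had 1.57, 3.37 and 2.253 FPKM and was called at 6 h against 0 h alone. EXPA4 (AT2G39700), with 6.11, 6.90 and 6.63 FPKM, was called in no comparison, like EXLA1 and EXLB1.

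**Figure D3:**
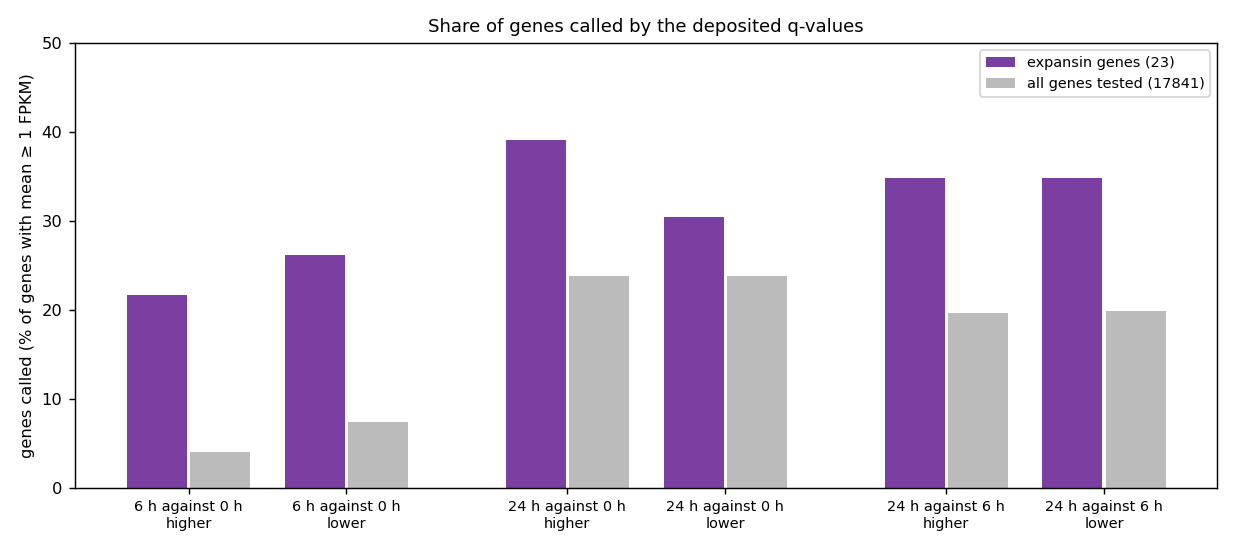
Share of genes called by the deposited q-values, in percent of genes with a mean of at least 1 FPKM, for the 23 expansins (purple) and all 17841 genes (grey), by comparison and direction. The gap is widest at 6 h against 0 h, where 26.1% of expansins and 7.35% of all genes were called lower.

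For 24 h against 6 h, 16 expansins were called, 8 higher and 8 lower, or 69.6% of the genes tested, against 39.4% of all genes, and each direction made up 34.8%, against 19.6% higher and 19.8% lower in all genes. With a minimum mean of 5 FPKM, the 24 h against 6 h calls were 3 higher and 8 lower. Those of 6 h against 0 h were 3 higher and 6 lower. No share of all genes at that limit is given here for either comparison. The comparisons share libraries, so counts of one are not independent of the others. The median difference of the 23 genes at 24 h against 0 h was 0.34, against 0.046 for all genes, but it was -0.17 among expansins with a mean of at least 5 FPKM. At 6 h against 0 h it was 0.058, against 0.019 for all genes, and -0.11 with that higher limit. With a minimum difference of 1, 10 of the 23 expansins were called at 24 h against 0 h, against 17.8% of all genes. By that rule 4 of the 23 were called at 6 h against 0 h, against 2.58% of all genes. At 24 h against 6 h, 7 of the 23 were called, against 11.5%.

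Across the table, differences at 24 h vary with transcript length, and the 23 expansins have transcripts of 989 to 1795 bp, with a median of 1361 bp against 1721 bp for all genes tested. The running median over length at the expansins' lengths ranged between 0.018 and 0.48 at 24 h against 0 h, and between -0.0033 and 0.059 at 6 h. With this trend subtracted, the family median at 24 h became 0.053, and every called expansin kept its direction. The rise of EXPA11 at 24 h then was 0.29 in place of 0.57, and the fall of EXPA17 was -0.88 in place of -0.46.

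The proton pumps that acidify the wall were measured beside the expansins. Of a list of 28 acid growth genes, 16 had a mean of at least 1 FPKM, and at 24 h against 0 h 7 of them were called lower and 1 higher. The 8 called of 16 are a share close to the 47.7% of all genes called. Lower calls alone were 23.8% of all genes. AHA2 (AT4G30190), the most abundant of them, had 1038, 985 and 329.8 FPKM at 0, 6 and 24 h. AHA1 had 205, 201 and 127 FPKM and AHA7 had 103, 101 and 44.9 FPKM, all of them lower at 24 h against both earlier times. AHA3 had 0.792, 0.751 and 1.65 FPKM and was the one called higher, having passed the limit through 24 h. AHA5 had 2.13, 2.43 and 1.46 FPKM and was called lower at 24 h against 6 h alone. These transcripts are long, and the length trend at AHA1 was -0.52, against its difference of -0.69 at 24 h against 0 h. The trend at AHA2 was -0.41, against its difference of -1.65, and at AHA7 -0.34, against -1.18.

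FERONIA (FER), a receptor kinase known to restrain the pumps when bound by the peptide RALF1, had 155, 119 and 81.1 FPKM and was called lower at 24 h, while RALF1 had 395, 352 and 421 FPKM and was not called. Clade D PP2C phosphatases are known to switch pumps off. AT5G66080, AT3G12620 and AT3G55050, all listed here under that clade, were called lower at 24 h against 0 h. Their differences were -0.74, -0.96 and -0.49. They are 3 of 7 phosphatase genes measured. The other 4 were not called, and AT4G38520 among these had a difference of 0.044. SAUR19 to SAUR24, of a family known to inhibit such phosphatases, were listed at 0 or had means below 1 FPKM. At 6 h against 0 h none of the 16 acid growth genes was called by the deposited q-values, and none had a recovered unadjusted p-value below 0.05. In that comparison 11 of 23 expansins were called, against 11.3% of all genes. With recovered p-values adjusted within the comparison, 7 expansins were called, against 7.61% of all genes. Whether the lists differ was not tested.

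**Figure D4:**
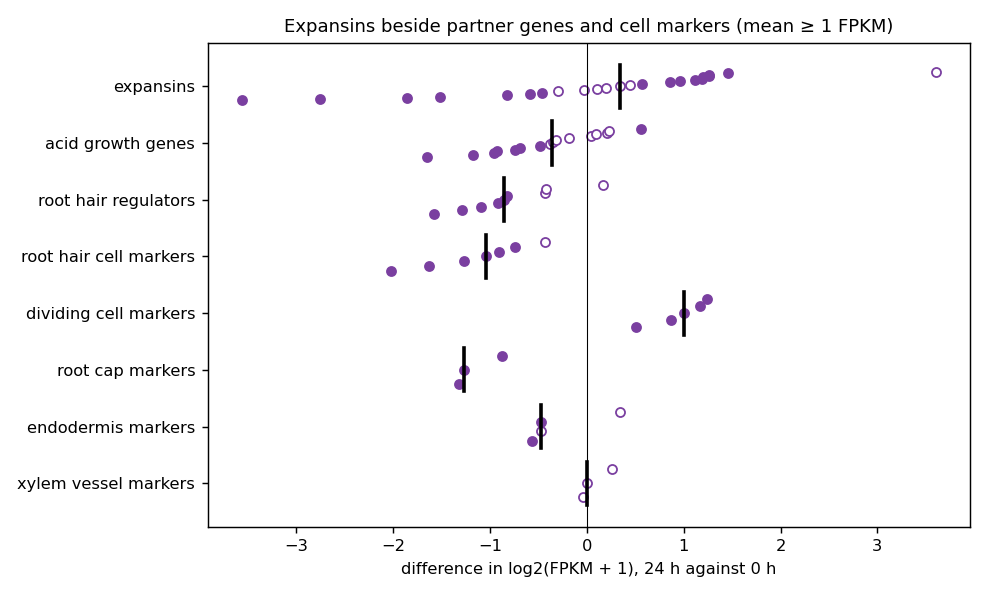
Difference in log2(FPKM + 1) at 24 h against 0 h for genes with a mean of at least 1 FPKM; each point is 1 gene, filled where the deposited q-value was below 0.05, and black bars are medians. Expansins spread between -3.56 and 3.60, while each of the 7 root hair cell markers lies below 0 and each of the 5 dividing cell markers above it.

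Markers of other cell types moved at 24 h too. All 5 dividing cell markers were called higher at 24 h than at 0 h, with a summed level of 47.3, 60.6 and 94.7 FPKM at 0, 6 and 24 h. All 3 root cap markers were called lower, with sums of 94.3, 89.0 and 37.6 FPKM. For all genes tested, the shares called at 24 h against 0 h were 23.8% higher and 23.8% lower. Of 4 endodermis markers, CASP1 and CASP2 were called lower at 24 h against 0 h, and SCR and ESB1 were not called. SCR had 19.8, 18.4 and 25.3 FPKM and was called higher at 24 h against 6 h. Of 3 measured xylem vessel markers none was called at 24 h against 0 h, with deposited q-values of 0.338 or more. The leaf genes LHCB1.1 and LHCB1.2 did not exceed 0.864 FPKM at any time. RBCS1A, the third leaf gene listed, had 2.99, 1.66 and 12.8 FPKM and was called higher at 24 h against both earlier times. No marker on these lists was listed at 0 at every time. At 6 h all 5 dividing cell markers had higher values than at 0 h, and 2 of them, CDKB2;1 and CDKB2;2, were called. Neither call was left when recovered p-values were adjusted within the comparison, with adjusted p-values of 0.112 and 0.127. All 7 root hair markers had lower values at 6 h than at 0 h, and 3 of them were called, also with that adjustment. For all genes tested, the shares called at 6 h against 0 h by the deposited q-values were 3.98% higher and 7.35% lower. The root cap markers had deposited q-values of 0.630 or more. The part of a changed cell mix in the expansin values was not tested.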

How the data were processed

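Root RNA of 9 samples (0 h, 6 h and 24 h of induction, 3 replicates each) was read as 100 bp single-end reads of strand-specific poly(A) libraries, per the labels' protocols. The submitters' processing notes name TopHat2 2.0.13, Cufflinks 2.1.1, Cuffdiff and the build TAIR10, with no roles. The authors deposited 1 value per gene and time, taken as FPKM because Cufflinks is named and because the values are not whole and sum to different totals; the header names no unit. The authors also deposited log2 fold changes and q-values, per the file headers. The log2 fold changes equal the log2 ratio of the values within 0.001 in at least 99.995% of rows with both values above 0. The smallest q-value, 0.000358, is a floor shared by many genes.

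Samples were grouped by title. With no value per replicate, the planned limma fit was not possible, so calls rest on the q-values that the authors deposited. The p-values behind them were recovered as a Benjamini-Hochberg family of 53530 tests with a q-value below 1. Numpy 2.4.6 and pandas 2.3.3 under Python 3.11.15 were used, and the steps were tested on simulated data. Length trends were medians over 50 length bins. TAIR10.1 supplied gene models and sequences. Genes were named by rule: every expansin of at least 1 FPKM at any time, the tandem genes, PAN, and called genes of the partner lists. Uncalled partners, overlapping genes and the expansin-like windows were added after their values were seen. The members and lists were chosen with earlier results of these data known. Of the acid growth genes, 1 had no row of its own. Proteins were not used here.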

Additional observations from a re-analysis of the deposited data

How the results depend on the processing

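No paired analysis was possible because each gene has 1 combined value per time, so replicate numbers belong to no column; leaving out replicates was not possible for the same reason. Total counts of called expansins stayed within 1.5 times under no filter on low values and a minimum mean of 5, in all 3 comparisons. The higher calls did not: with a minimum mean of 5 they were 4 in place of 9 at 24 h against 0 h, 3 in place of 5 at 6 h against 0 h and 3 in place of 8 at 24 h against 6 h, while the lower calls kept their counts of 7, 6 and 8. A minimum change of 1 in log2(FPKM + 1) left 10 of 16 calls for 24 h against 0 h, 4 of 11 for 6 h against 0 h, and 7 of 16 in the last comparison, 24 h against 6 h. At 6 h against 0 h, a q-value limit of 0.01, adjustment within the comparison and a minimum of 1 in the authors' log2 fold change each left 7 calls. That last limit, added after the data were seen, left 10 calls at 24 h against 6 h. The median difference at 24 h against 0 h (0.34) was 0.50 with a pseudocount of 0.1, 0.26 under quantile normalization, 0.31 under median-of-ratios scaling, 0.053 with the length trend subtracted, 0 with no filter and -0.17 with a minimum mean of 5. At 6 h against 0 h (0.058) it was 0.067, 0.021, 0.052, 0.028, 0 and -0.11 in the same order. At 24 h against 6 h (-0.049) it was -0.056, -0.061, -0.085, -0.29, 0 and -0.42. The 43 called changes of single expansins kept their direction under the pseudocount, both scalings and the length trend. The cause of these shifts was not tested. Depth is unknown, so values below 1 FPKM carry no limit of detection.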
